A study of Mus musculus with 2 samples.

Results

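The 10 genes described here control the entry of activated T cells into the cell cycle: the D cyclins Ccnd2 and Ccnd3, the kinases Cdk4 and Cdk6, the CDK inhibitors Cdkn1a, Cdkn1b, Cdkn2c and Cdkn2d, the pocket protein gene Rb1, and Myc. They were chosen by gene name, and all 10 were found among the 16385 genes of the table the authors deposited. RNA was sequenced from 2 libraries of Malat1 knockout Th17 cells (C57BL/6), which the submitters call independent biological replicates. Th17 cells are CD4+ helper T cells that secrete IL-17, and Malat1 is a long non-coding RNA retained in the nucleus of most cells. Naive CD4+ T cells had been cultured for 72 h on anti-CD3ε (0.25 µg/mL) and anti-CD28 (1 µg/mL) with IL-6 at 20 ng/mL and TGF-β at 0.1 ng/mL. The labels state neither the kind of knockout allele nor the age and sex of the animals. For replicate 2 the genotype label reads Malat2 while the title reads Malat1, which was taken as correct. The marker genes given below bear on cell type and not on this genotype. Malat1 is not among the 23 genes that the authors' DESeq2 called, and its own level is not given here. The wild-type Th17 cells in the authors' comparison came from a different series, and effects of genotype and of series cannot be told apart.

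In T cells, signals from the antigen receptor and CD28 induce Myc and the D cyclins. D cyclins bind CDK4 and CDK6, and the active kinases phosphorylate the retinoblastoma protein, which then releases E2F factors that switch on the genes of S phase. INK4 inhibitors bind CDK4 and CDK6 and keep the cyclins off, while Cip/Kip inhibitors bind assembled cyclin-CDK complexes, chiefly those of CDK2. Cells at 72 h of such a culture are usually in rapid division.

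Sequencing gave 21554852 counts for replicate 1 and 26916169 for replicate 2. The cell type label was checked on marker genes: all 7 Th17 markers and all 9 pan T cell markers were expressed, with Il17f at 63523 and 60211 normalized counts. All 16 proliferation markers were expressed too, among them Mki67 at 5113 and 5961 and Top2a at 8503 and 9523 normalized counts. The 5 B cell markers summed to 8.71 and 7.59 normalized counts, and the NK markers Klrb1c and Ncr1 had 0 counts in both libraries. The 6 myeloid markers summed to 198 and 155 normalized counts, with Cd68 at 142 and 111 counts and Cd14 at 55 and 82. Of the CD8 genes, Cd8a had 6 and 4 counts and Cd8b1 had 283 and 376. The 10 kidney tubule markers summed to 34.8 and 40.2 normalized counts in the knockout libraries, against an implied wild-type sum of 19828. The 8 matrix and smooth muscle markers summed to 109 and 91.8, against 15743. Of these markers, 9 of 10 and 7 of 8 lay under 2% of an implied wild-type mean of at least 100. Over all genes, 235 of 16385 did. The authors' DESeq2 called 4 of the 10 and 2 of the 8 lower in knockout cells. Both lists were chosen with earlier results of these data known, so these counts describe the lists and test nothing. The largest of each list were not called. Kap had an implied wild-type mean of 11576 (log2 fold change -5.28, SE 4.23), and Sparc of 5956 (-7.59, SE 3.31). Lrp2, Umod and Col1a2 had 0 counts in both knockout libraries. The implied wild-type mean is the value that the authors' mean over 4 libraries leaves once both knockout values are taken out, and it carries no replicate spread.

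In the authors' comparison of knockout with wild type, 0 of the 10 genes reached an adjusted p under 0.05 in the authors' deposited table, which holds Wald tests from DESeq2 with Benjamini-Hochberg adjustment. Every one of the 10 had the same adjusted p of 0.999988 in the authors' DESeq2, and at an unadjusted p under 0.05 the count was also 0. Over all genes with an adjusted p, 23 of 14481 were called (0.159%), that is 0.00691% higher and 0.152% lower in knockout cells, so 0 of 10 is near that background. At an unadjusted p under 0.05 the share was 2.11% of 16385 genes, with 0.391% higher and 1.72% lower. The log2 fold changes of the 10, knockout over wild type, were above 0 for 7 genes and below 0 for 3, with a median of 0.07 and a range from -0.16 to 0.21 in the authors' deposited table. The median over all genes was -0.03, and over the 4862 genes with a mean of at least 1000 normalized counts it was 0.01. A log2 fold change above 0 was found for 44.1% of all genes and for 53.5% of those 4862. The T cell markers lay on the same side as most of the 10. Their log2 fold change was above 0 for 8 of 9 pan T cell markers (median 0.11) and for 6 of 7 Th17 markers (median 0.17). Il17f, at 0.40, was the single gene called higher by the authors' DESeq2 (adjusted p 0.00124 in the authors' deposited table). The part of these markers in the values of the 10 genes was not tested.

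**Figure D1:**
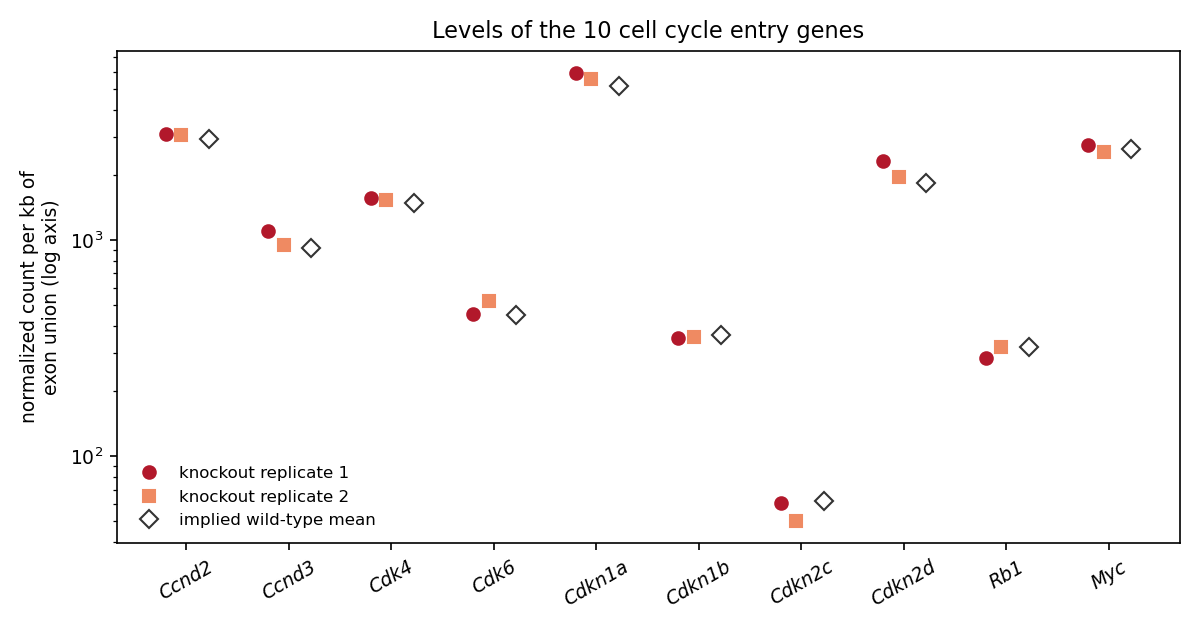
Level of each of the 10 genes, in normalized counts per kb of exon union on a log axis, in the 2 Malat1 knockout libraries (circles and squares) and as the implied wild-type mean (open diamonds, no error available). Cdkn1a is highest at 5912 and 5529 and Cdkn2c lowest at 60.5 and 50.3 per kb in the knockout libraries.

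Ccnd2 encodes cyclin D2, a main D cyclin of lymphocytes. It lies on chromosome 6 from 127125162 to 127152193 on the minus strand (GRCm38, ENSMUSG00000000184.12). Its normalized counts were 29077 and 28784 in knockout replicates 1 and 2, against an implied wild-type mean of 27626. Both knockout values thus lay above that mean, and Ccnd2 ranked 43 among all genes by knockout normalized count, the highest of the 10. The log2 fold change in the authors' deposited table was 0.07 (SE 0.100, 95% Wald interval -0.12 to 0.27), or 1.05-fold (interval 0.918 to 1.20), at an unadjusted p of 0.468 (DESeq2, as deposited).

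Ccnd3, encoding cyclin D3, is the D cyclin on which thymocyte expansion depends. The gene is on chromosome 17 from 47505051 to 47599691 on the plus strand (ENSMUSG00000034165.16), and its exons share 361 bases with Bysl on the opposite strand. It stood at 9636 and 8306 normalized counts in the knockout libraries, against an implied wild-type mean of 8041. Here the replicates lay further apart than for Ccnd2, and the second was close to the implied wild-type mean. Its log2 fold change was 0.15 (SE 0.12, interval -0.08 to 0.39) in the authors' deposited table, at an unadjusted p of 0.192 (DESeq2, as deposited).

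The ratio of Ccnd2 to Ccnd3 in the knockout libraries was 2.81 and 3.23 per kb of exon union, but 1.01 and 1.16 per kb of the longest coding transcript.

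Ccnd1, the remaining D cyclin, is outside the 10 and was looked up as their relative. It had 64.8 and 58.4 normalized counts in the knockout libraries, against an implied wild-type mean of 314. Per kb of exon union, Ccnd2 and Ccnd3 together made up 99.7% of the D cyclin signal in each knockout library. For Ccnd1 the log2 fold change was -1.63 (SE 0.97, interval -3.53 to 0.27) in the authors' deposited table and did not pass, at p 0.0935 before adjustment (DESeq2, as deposited). This fitted value is smaller in size than the plain log2 ratio of the knockout counts to the implied wild-type mean. Cyclin D1 is the D cyclin of many epithelial and stromal cells, and the kidney and matrix markers given above differ in the same direction. Their part in the value of Ccnd1 was not tested, and in bulk RNA fewer cells of a type and less RNA per cell cannot be told apart.

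Cdk4 lies on chromosome 10 from 127063534 to 127067920 (plus strand, ENSMUSG00000006728.12) and Cdk6 on chromosome 5 from 3341485 to 3531008 (plus strand, ENSMUSG00000040274.11). These spans are from GENCODE. RefSeq places a start of Cdk6 further downstream, inside the GENCODE span, and the bases before the RefSeq starts are shown because MYC, with its partner MAX, binds the E-box CACGTG, and because Cdk4 carries more copies of it than any other promoter found among these 10 genes. The sequences are from RefSeq (GRCm38.p6, plus strand), chr10:127063285-127063534 for Cdk4 and chr5:3343643-3343892 for Cdk6, with each CACGTG in capitals.
Cdk4: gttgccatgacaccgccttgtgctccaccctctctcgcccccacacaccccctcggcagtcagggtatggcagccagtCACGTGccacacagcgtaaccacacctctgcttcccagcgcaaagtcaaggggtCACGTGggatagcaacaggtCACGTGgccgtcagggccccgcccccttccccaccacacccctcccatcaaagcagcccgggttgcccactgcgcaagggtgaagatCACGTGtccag
Cdk6: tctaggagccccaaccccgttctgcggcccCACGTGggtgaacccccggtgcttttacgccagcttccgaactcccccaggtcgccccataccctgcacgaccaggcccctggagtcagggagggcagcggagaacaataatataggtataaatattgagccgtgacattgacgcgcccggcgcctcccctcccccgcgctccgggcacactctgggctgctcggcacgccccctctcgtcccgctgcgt
The motif reads the same on both strands. Cdk4 held 4 copies, whose first letters lie 172, 118, 98 and 11 bases before its RefSeq start, and Cdk6 held 1 copy at 220 bases before its own. Promoters of 7 of the 10 genes were found, as windows of 300 bases around a start. The motif was held in at least 1 window by 3 of these 7 genes, the other being Cdkn2c, whose copy lies after its start. Over all 27025 genes with a window the share was 8.09%. Of all 32851 promoter windows 7.15% held CACGTG, and 8 windows (0.0244%), that of Cdk4 included, held at least 4 copies. A match of letters is a description of these windows and no measurement of binding.

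Cdk4 was among the steadiest of the 10 genes between replicates. Its normalized counts were 5058 and 4955 in the knockout libraries, against an implied wild-type mean of 4796. Knockout over wild type, its log2 fold change was 0.06 (SE 0.13, interval -0.19 to 0.32) in the authors' deposited table, at an unadjusted p of 0.613 (DESeq2, as deposited). Exons of Cdk4 share 641 bases with Tspan31 on the opposite strand, and 29.5% of the 50-base words of its longest coding transcript recur in transcripts of other genes, as do 21.7% of those of Ccnd3. The share was 10.5% for Cdkn1a, 5.17% for Ccnd2, 1.49% for Cdk6, 1.26% for Rb1 and 0% for the rest of the 10. How shared reads were counted is not stated, so the levels of genes with such words are uncertain by an unknown amount. The words were sought on both strands, so these shares can include the overlaps with Tspan31 and Bysl. They give no size of the error in the counts. Exons on the opposite strand also overlap Ccnd2 (740 bases), Cdk6 (368 bases) and Cdkn1a (273 bases).

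Cdk6 stood at 6385 and 7299 normalized counts in the knockout libraries, against an implied wild-type mean of 6303. Replicate 2 was the higher library, unlike for Cdk4, and replicate 1 nearly met the implied wild-type mean. For Cdk6 the log2 fold change was 0.12 (SE 0.14, interval -0.17 to 0.40) in the authors' deposited table, at an unadjusted p of 0.418 (DESeq2, as deposited). The level of Cdk4 relative to Cdk6 depended on the length used: Cdk4 was 3.41-fold and 2.92-fold above Cdk6 in the knockout libraries per kb of exon union, but 0.852 and 0.730 of it per kb of coding length, the coding part being 978 of the 11525 bases of the longest coding Cdk6 transcript.

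Cdkn1a encodes p21, a Cip/Kip inhibitor that p53 and mitogen signals induce. It lies on chromosome 17 from 29090976 to 29100727 (plus strand, ENSMUSG00000023067.14). Its normalized counts were 21005 and 19644 in the knockout libraries, against an implied wild-type mean of 18391. It came nearest to the threshold among the 10, with a log2 fold change of 0.14 (SE 0.074, interval -0.0014 to 0.29) and an unadjusted p of 0.0523 in the authors' deposited table (DESeq2, as deposited). That is 1.10-fold, and the upper end of the interval is 1.22-fold. Per kb of exon union it was the highest of the 10 and ranked 138 among 16371 genes with a length.

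Cdkn1b encodes p27, the Cip/Kip inhibitor that holds resting T cells out of the cycle and is lost, largely by protein degradation, after stimulation. Its position is chromosome 6 from 134920401 to 134925513 (plus strand, ENSMUSG00000003031.14). At 1599 and 1616 normalized counts in the knockout libraries, against an implied wild-type mean of 1650, it differed little between replicates and lay just under that mean. The log2 fold change was -0.04 (SE 0.19, interval -0.41 to 0.33) in the authors' deposited table, at an unadjusted p of 0.839 (DESeq2, as deposited). With the trend of fold change over GC content subtracted, its sign turned, to 0.0234. Per kb of exon union, Cdkn1a exceeded Cdkn1b 16.8-fold and 15.6-fold in the knockout libraries, and 14.3-fold in the implied wild-type means. Over the longest coding transcripts the ratio was 28.7 and 26.6 in the knockout libraries. The last Cip/Kip gene, Cdkn1c (p57), looked up as a relative, had 5 counts in each knockout library.

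Among the INK4 inhibitors, Cdkn2d (p19INK4d) was the more abundant of the 2 in the group. The gene spans chromosome 9 from 21288410 to 21291407 (minus strand, ENSMUSG00000096472.2). It had 3651 and 3071 normalized counts in the knockout libraries, against an implied wild-type mean of 2894. Both libraries lay above that mean, replicate 1 clearly more so. Its log2 fold change of 0.21 (SE 0.18, interval -0.15 to 0.57) was the highest of the 10 in the authors' deposited table and did not pass, at an unadjusted p of 0.246 (DESeq2, as deposited). That rank and size rest on replicate 1: without it the log2 ratio to the implied wild-type mean was 0.0857 for Cdkn2d, below Cdk6 at 0.212 and Cdkn1a at 0.0951.

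Cdkn2c (p18INK4c), which restrains the division of lymphocytes in mice, lies on chromosome 4 from 109660876 to 109667189 (minus strand, ENSMUSG00000028551.14). It was the scarcest of the 10, with 163 and 135 normalized counts in the knockout libraries, against an implied wild-type mean of 166. Its log2 fold change of -0.16 in the authors' deposited table had the widest interval (SE 0.59, interval -1.32 to 1.00, the authors' DESeq2 p 0.786), that is, from 0.400 of wild type to 1.998-fold. Per kb of exon union, Cdkn2d exceeded Cdkn2c 38.3-fold and 38.8-fold in the knockout libraries, and 22.3-fold and 22.6-fold per kb of coding length. The other INK4 genes were at the limit of detection: Cdkn2a had 1 and 5 counts, and Cdkn2b had 0 and 5 counts, where 0 counts in replicate 1 allow up to 2.90 normalized counts.

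**Figure D2:**
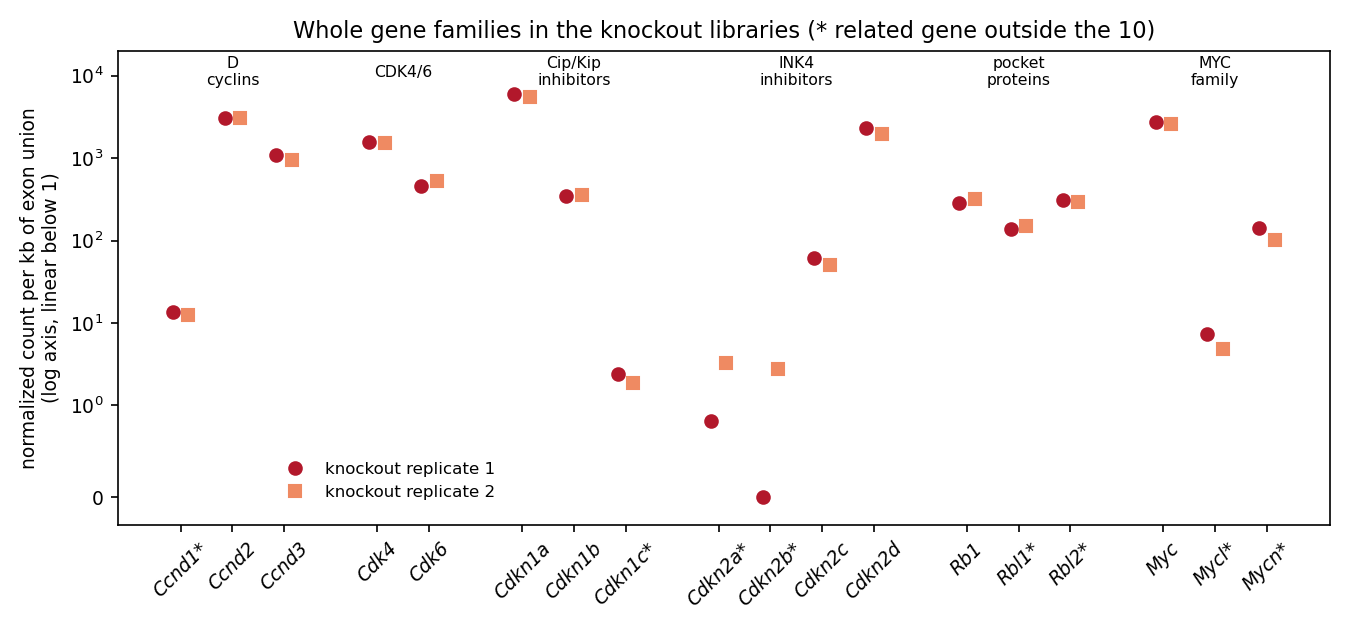
Level of every gene of the 6 families, in normalized counts per kb of exon union (log axis, linear below 1), in knockout replicates 1 and 2. Asterisks mark relatives outside the 10: Ccnd1, Cdkn1c, Cdkn2a, Cdkn2b and Mycl lie under 14 per kb in both libraries, while Rbl1, Rbl2 and Mycn lie between 100.7 and 309 per kb.

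Rb1 encodes the retinoblastoma protein, the substrate through which CDK4 and CDK6 act. It lies on chromosome 14 from 73183673 to 73325822 (minus strand, ENSMUSG00000022105.6), and its exons share 896 bases with Rcbtb2 and Lpar6 on the opposite strand. Its normalized counts were 1714 and 1914 in the knockout libraries, against an implied wild-type mean of 1932. Both libraries lay below that mean, the second by little. Its fold change on the log2 scale was -0.09 (SE 0.19, interval -0.47 to 0.29) in the authors' deposited table, at an unadjusted p of 0.629 (DESeq2, as deposited). Rb1 was not alone in its family: per kb of exon union it made up 38.9% and 41.9% of the pocket protein signal in the knockout libraries. Rbl2 (p130), looked up as a relative, stood at 309 and 293 per kb, and Rbl1 (p107) at 139 and 148 per kb.

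Myc encodes the transcription factor that drives growth and metabolism of activated T cells. The gene is on chromosome 15 from 61985391 to 61990374 (plus strand, ENSMUSG00000022346.15). It had 7467 and 6951 normalized counts in the knockout libraries, against an implied wild-type mean of 7138, which lay between them. Of the 10, Myc alone had knockout libraries on both sides of the implied wild-type mean. The log2 fold change was 0.02 (SE 0.12, interval -0.22 to 0.27), or 1.02-fold (interval 0.858 to 1.20), at an unadjusted p of 0.856 in the authors' deposited table (DESeq2, as deposited). Its sign turned without replicate 1 (-0.0384) and with the GC trend subtracted (-0.0042). Of its relatives, Mycn had 472 and 332 normalized counts and Mycl 29.99 and 19.7, against implied wild-type means of 484 and 30.2. Per kb of exon union, Myc made up 94.8% and 96.0% of the family signal in the knockout libraries.

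**Figure D3:**
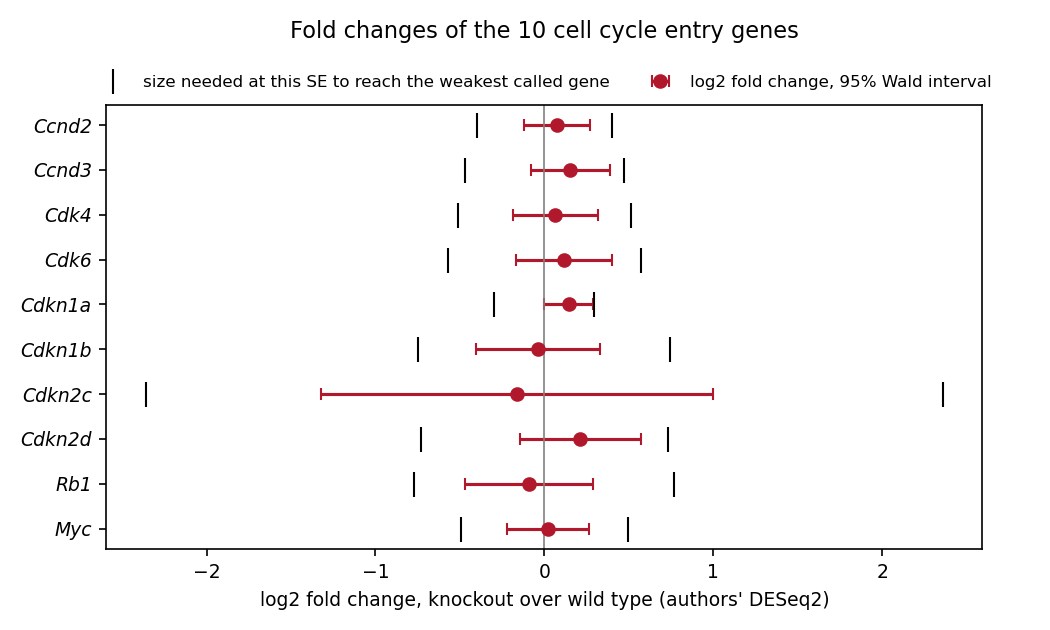
Log2 fold change of each gene, knockout over wild type, with its 95% Wald interval from the authors' DESeq2 fit (points and bars). Black ticks mark the size each gene would have needed, at its own standard error, to reach the Wald statistic of the weakest called gene, and no point reaches its tick.

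The precision differed between genes. The weakest gene the authors' DESeq2 called had an absolute Wald statistic of 3.99, and the highest among the 10 was 1.94, for Cdkn1a. At their standard errors, a change of 1.23-fold would have reached that statistic for Cdkn1a, 1.32-fold for Ccnd2, 1.39-fold for Ccnd3 and 1.41-fold for Myc. For Rb1 the size was 1.71-fold, and for Cdkn2c 5.13-fold. The genes that missed the threshold are not shown to be equal between genotypes. Between the knockout replicates, the absolute log2 ratio over genes with a mean of at least 1000 had a median of 0.09 and a 90th percentile of 0.22. The 10 genes ranged from -0.27 for Cdkn2c to 0.19 for Cdk6 (replicate 2 over replicate 1). Of them, 8 lay within that 90th percentile, the others being Cdkn2c and Cdkn2d. Cdkn2c, with a mean of 158, lies below the level of the genes behind that percentile, so the 2 are not alike in counting error. Both knockout libraries lay above the implied wild-type mean for 6 of the 10 genes and below it for 3, while over all genes these shares were 27.7% and 44.6%. A mean of at least 1000 normalized counts was reached by 9 of the 10, and these shares were not taken over genes of that level.

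Within the knockout cells, the order by normalized count per kb of exon union was Cdkn1a at 5720 ± 271, Ccnd2 at 3075 ± 22.05, Myc at 2653 ± 134, Cdkn2d at 2135 ± 261 and Cdk4 at 1541 ± 22.6 (SD, n = 2 for each). Ccnd3 followed at 1022 ± 107, Cdk6 at 489 ± 46.2, Cdkn1b at 353 ± 2.61, Rb1 at 302 ± 23.5 and Cdkn2c at 55.4 ± 7.22 (SD, n = 2 for each). No neighbours in this order overlapped between libraries. Over the longest protein-coding transcript, a choice added after the data were seen, Ccnd3 stood next after Ccnd2, at 4560 and 3931 per kb, against 4594 and 4547 for Ccnd2, and these then overlapped, as did Cdk4 at 2464 and 2413 with Cdkn2d at 2566 and 2158. Cdkn1a was highest and Cdkn2c lowest by exon union, longest transcript and coding length alike. Between these ends the order depended on the length used. Per kb of coding length, the knockout mean of Cdk6, at 6996, stood above Cdkn2d at 6629, Cdk4 at 5508 and Myc at 5293. Per kb of the longest transcript, Rb1 at 368 and 411 stood above Cdkn1b at 351 and 355. Summed over the 4 inhibitors and divided by the summed D cyclins, the level per kb of exon union gave 2.06 and 1.97 in the knockout libraries and 1.93 in the implied wild-type means. Per kb of coding length the same ratio was 1.32 and 1.27 in the knockout libraries and 1.25 in the implied wild-type means.

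Other genes of the G1 to S transition, from a list of 33, gave 0 calls by the authors' DESeq2 and 0 at an unadjusted p under 0.05. Their median log2 fold change was -0.06, with 10 of 33 above 0. Skp1a, a subunit of the SCF ubiquitin ligase that marks p27 for degradation, had 3175 and 3404 normalized counts in the knockout libraries, against an implied wild-type mean of 4399, and a log2 fold change of -0.38 (SE 0.20, unadjusted p 0.0569) in the authors' deposited table. E2f5, a repressive E2F factor, stood at a log2 fold change of -0.42 (SE 0.44) and Ccnc, the cyclin C of the Mediator kinase module, at -0.23 (SE 0.24) in the same table.

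Downstream of Rb1, 24 E2F targets of the replication machinery gave 0 calls by the authors' DESeq2 and 0 at an unadjusted p under 0.05. Their median log2 fold change was 0.03, and 15 lay above 0. By log2 fold change, the authors' deposited table put Pola1 (DNA polymerase alpha) at -0.12 (SE 0.23), Gins1 (the GINS complex) at -0.28 (SE 0.61) and Mcm7 (the replicative helicase) at 0.08 (SE 0.18). The 16 proliferation markers lay within a narrow range from -0.11 to 0.06, with a median of 0.01 and 0 at an unadjusted p under 0.05. Of genes that act in mitosis, Ccnb1 was at -0.11, Cdc20 at -0.11, Plk1 at -0.08 and Birc5 at 0.06 by log2 fold change, as the authors' deposited table gives it.

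Around Myc, the 20 genes of its dimer and cofactor network gave 0 calls and 0 at an unadjusted p under 0.05, with a median log2 fold change of 0.01. Mxd1, which competes with MYC for MAX, had 2487 and 1810 normalized counts in the knockout libraries, against an implied wild-type mean of 1605, and a log2 fold change of 0.42 (SE 0.31, unadjusted p 0.166) in the authors' deposited table. Mlxipl, the glucose-sensing relative ChREBP, had 3.87 and 7.59 normalized counts, against an implied wild-type mean of 93.0, with a log2 fold change of -2.31 (SE 1.59) in the authors' deposited table. As for Ccnd1, the fitted value is smaller in size than the plain log2 ratio. The kidney and matrix markers differ in the same direction as Mlxipl, and their part in it was not tested. By the authors' deposited table, Trrap, a cofactor of MYC, had a log2 fold change of 0.12 (SE 0.16).

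Of 26 Myc targets, 0 were called by the authors' DESeq2. Ldha, lactate dehydrogenase A, and Odc1, the first enzyme of polyamine synthesis, were the 2 at an unadjusted p under 0.05. Ldha had 96305 and 92476 normalized counts in the knockout libraries, against an implied wild-type mean of 85894 (log2 fold change 0.14, SE 0.064, unadjusted p 0.0319). Odc1 had 59999 and 56642, against 52083 (log2 fold change 0.17, SE 0.086, unadjusted p 0.0486), both by the authors' deposited table. The median of the list was nonetheless -0.04, with 5 of 26 above 0, and Eif4e (the cap-binding factor) had a log2 fold change of -0.18 (SE 0.14) and Hspd1 (the mitochondrial chaperone HSP60) of -0.14 (SE 0.15), again by the authors' deposited table.

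The list of 16 p53 pathway genes held Trp53 itself and genes that share p53 as an inducer with Cdkn1a. It gave 0 calls by the authors' DESeq2 and 1 lower gene at an unadjusted p under 0.05. This was Gadd45a, a stress-induced growth arrest gene, with 155 and 166 normalized counts in the knockout libraries, against an implied wild-type mean of 315 (log2 fold change -0.98, SE 0.47, unadjusted p 0.0388 in the authors' deposited table). The list's median was -0.02, with 5 of 16 above 0, beside 0.14 for Cdkn1a. On the same scale, the authors' deposited table gave -0.22 for Plk2, 0.23 for Btg2 and -0.25 for Phlda3. The 17 quiescence regulators gave 0 calls and 0 at an unadjusted p under 0.05, with a median of -0.01. Tob1, an antiproliferative adaptor, had a log2 fold change of -0.34 (SE 0.30), with the kinase Dyrk1a at -0.15 (SE 0.18) and Tob2 at 0.12 (SE 0.15) in the authors' deposited table.

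**Figure D4:**
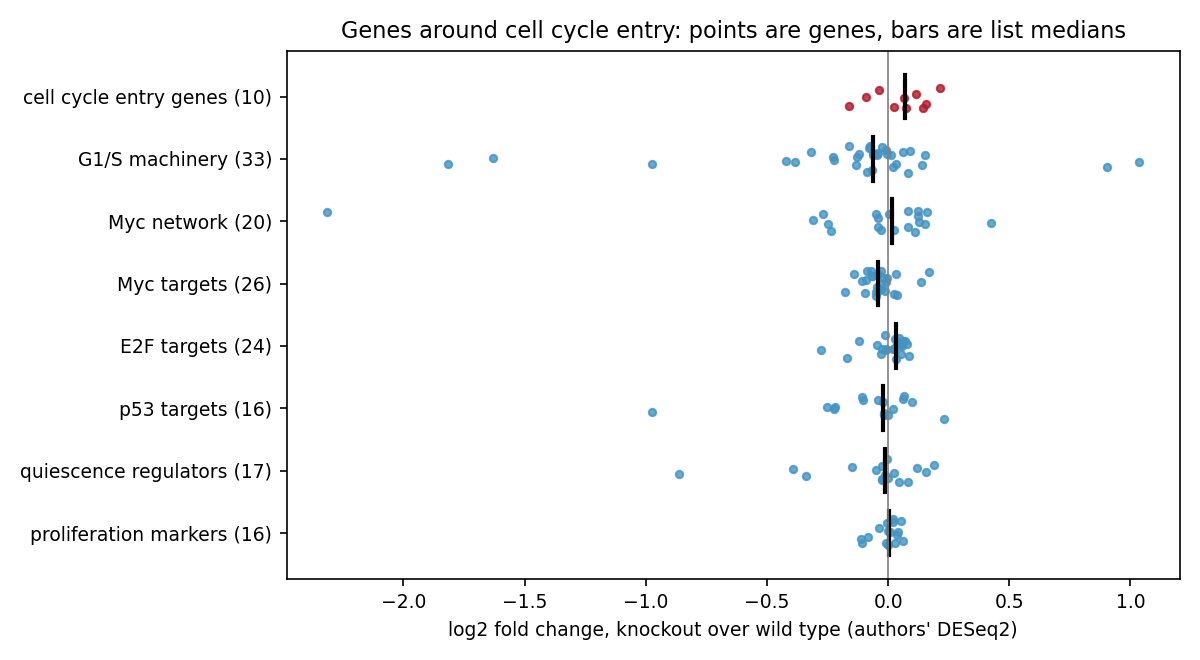
Log2 fold changes, knockout over wild type, of the cell cycle entry genes (red) and of the lists around them (blue), 1 point per gene, with the list medians as black bars and list sizes in parentheses. The medians lie between -0.06 and 0.07. The leftmost points are Mlxipl, Cdkn2b and Ccnd1, at -2.31, -1.82 and -1.63, all under 100 normalized counts in the knockout libraries.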

How the data were processed

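The data are a single table that the authors deposited, with raw counts (whole reads per gene) for 2 knockout libraries. The authors also deposited a normalized signal per library, equal to the count over a size factor (1.03 and 1.32), and its mean across 4 libraries. From the authors come also each gene's log2 fold change (knockout over wild type) and standard error, its Wald score, and its p-value with and without adjustment. The submitters' processing notes name STAR 2.6.1a, featureCounts, DESeq2 1.18.1 and mm10. Annotation, strand setting and model factors are not stated there. The authors' name for the comparison includes the word multifactor, but the factors besides genotype are not named. Without a known strand setting, reads of overlapping opposite genes cannot be told apart. A further 4 columns, holding wild-type libraries from a different series, were left unused.

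No new test between genotypes was run, as the comparison rests on the authors' DESeq2 alone. The 95% Wald interval is the log2 fold change ± 1.96 SE. Intervals and the limit for a count of 0 (3 counts) cover counting error only or the authors' model only. Exon-union lengths and coordinates came from GENCODE M21 (GRCm38, the same assembly as mm10), where 16371 of 16385 gene IDs were found. Near-absent genes have an implied wild-type mean of at least 100 while knockout cells average under 2% of that. The readjustment of p-values and the GC trend were tested on simulated data (Python 3.11.15, pandas 2.3.3, statsmodels 0.14.6). The 10 genes and all lists were chosen with earlier results of these data known. Named are all 10, up to 4 genes per list with the smallest p, and family relatives and marker genes picked after their values were seen. Of the list genes this rule names, 2 are not reported here.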

Additional observations from a re-analysis of the deposited data

How the results depend on the processing

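The count of 0 called among the 10 genes was the same at an unadjusted p under 0.05. It was also 0 with adjustment over every gene with a p-value, at means of at least 50 and without near-absent genes. These readjustments could not have called any of the 10, whose smallest unadjusted p was 0.0523 (DESeq2, as deposited). The count over all genes was 23, and 346 at an unadjusted p under 0.05, 9 without near-absent genes, and 23 and 24 under the other adjustments. The median log2 fold change of the 10 was 0.07 and lay at 0.06 when the knockout mean was divided by the implied wild-type value and with the GC trend subtracted, and between 0.05 and 0.07 when either replicate was left out. With the GC trend subtracted, Cdkn1b stood at 0.0234 (reported as -0.04) and Myc at -0.0042 (reported as 0.02), and the cause was not tested. Myc lay at -0.0384 without replicate 1 and 0.0650 without replicate 2. The other 8 genes kept their direction in these alternatives, but sizes moved. With the GC trend subtracted, Rb1 stood at -0.0083 (reported as -0.09), Cdkn1a at 0.115 (reported as 0.14) and Cdk6 at 0.150 (reported as 0.12). Sizes moved with the library left out as well. Without replicate 1 and without replicate 2, the values were 0.0469 and 0.261 for Ccnd3, 0.212 and 0.0186 for Cdk6, 0.0951 and 0.192 for Cdkn1a, 0.0857 and 0.335 for Cdkn2d, -0.300 and -0.0337 for Cdkn2c, and -0.0137 and -0.173 for Rb1. The median level of the 10 was 1282 per kb of exon union, 1281 scaled by library totals, 6068 per kb of coding length and 2400 per kb of the longest protein-coding transcript (chosen after the data were seen), and 1236 to 1328 when either replicate was left out. Without near-absent genes, 1 kidney marker was left, at -2.04 (the list's median was -6.07), and 1 matrix marker, at -0.0037 (median -7.07), while the cell cycle, Myc, E2F, p53 and quiescence lists hold 0 such genes. No paired analysis was possible because the 2 libraries form 1 group. Depth limits Cdkn2c most, with 168 and 178 counts.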
